A study of Mus musculus with 8 samples.

Results

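The 44 genes described here code for the machinery that copies DNA and for the enzymes that supply its nucleotides. They were chosen by name, at a time when earlier results of these data were known. On the arrays, 42 of the 44 genes had at least 1 probe set that the annotation gives to that gene alone, 76 probe sets in all of 22626 that are not controls. Rnaseh2a and Chaf1a had no such probe set and entered only the promoter counts. Of the 76 probe sets, 64 reached a ratio of 1 or more on 2 or more arrays and were tested, and they stand for 41 genes. The only probe set of Orc1 did not pass.

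RNA came from lymph node cells of B10.BR mice, an inbred strain, sorted by flow cytometry. The 3 groups were naive mice (3 arrays), mice at day 7 after immunization (3 arrays) and mice at day 28 after immunization (2 arrays). The labels name no immunogen, no sorted population, no age and no genotype beyond the strain. Nothing in them tells whether the replicates of a group came from separate animals. The p-values therefore speak only of the spread among these 8 arrays, whose small number limits the precision. Each value is a log2 ratio, and 0 is the median of that probe set over all arrays, or a floor common to all probe sets if the median is below it. Levels of different genes therefore cannot be compared.

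Before a cell divides, the origin recognition complex and its partners load the MCM helicase onto DNA, primase and the polymerases start and extend new strands, and the sliding clamp PCNA holds polymerases on the template. Ribonucleotide reductase, thymidylate synthase and thymidine kinase supply the building blocks, and many of these genes are transcribed under the control of E2F factors as cells enter S phase. In lymph nodes, lymphocytes that meet their antigen leave rest and divide, and replication genes are widely used as markers of that division.

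The arrays also differed in a technical reading. Bacterial spike-in controls added to every sample had a median log2 ratio of -1.16 on naive replicate 1 and of -1.70 to -1.03 on the day 7 arrays. On naive replicates 2 and 3 and the day 28 arrays it lay between 0.64 and 1.41. Naive replicate 1 thus shared a low spike-in signal with all 3 day 7 arrays. Values within each spike-in set are given below, and the part of this split in the results was not tested beyond them. The 3′ minus 5′ log2 difference of Gapdh probe sets, a sign of RNA quality that can be compared between arrays only, was 1.17 on day 7 replicate 3, against -1.04 and -1.18 on the other day 7 arrays, -1.09 and 0.02 at day 28 and 0.17 to 0.57 in naive mice. Markers of B cells stood at medians of -0.20 to -0.11 on the 6 naive and day 7 arrays and at 3.26 and 2.64 on the day 28 arrays. T cell markers ran from -0.70 on day 7 replicate 2 to 0.90 on naive replicate 2. Since ratios hold no level, the sorted cell type could not be checked from its markers.

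Most replication and nucleotide probe sets had a higher mean at day 7 than in naive mice (54 of 64, 84.4%, against 56% of all tested probe sets). Of the members, 4 rose past the threshold (adjusted p under 0.05 over 13042 tested probe sets). They belong to Pclaf, a partner of PCNA, Prim1, the catalytic primase subunit, Rrm1, the large subunit of ribonucleotide reductase, and Mcm6, a helicase subunit. The other 60 probe sets did not pass, and 0 fell. Over all tested probe sets, 1.06% rose, against 4 of 64 members (6.25%). The members were chosen with earlier results known, so these shares are given side by side and were not tested. At an unadjusted p under 0.05, 27 of 64 members (42.2%) were higher, against 12.4% of all probe sets, and 1 was lower. All 3 day 7 arrays lay above all 3 naive arrays for 24 members (37.5%), against 13.4% of all probe sets. The median log2 difference was 0.998 over the members and 0.11 over all tested probe sets, with 54 members above 0 and 10 below. Probe sets of the same gene measure the same RNA and are not independent. In RNA from a bulk of cells, fewer cells of a type and less RNA per cell cannot be told apart.

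The filter bears on these counts for 9 of the 64 probe sets, which had a median under the floor and passed through the arrays where they were high. Among the other 55, 3 rose (Prim1, Rrm1 and Mcm6), and the median log2 difference was 1.08. When only the 10831 probe sets with a median of 1 were fitted, the same 3 rose. Of all 10831, 0.702% were called in either direction, and their median log2 difference was 0.18. The 12 probe sets that were not tested reached a ratio of 1 on at most 1 array. The count also moved with single arrays. Without naive replicate 1, 18 member probe sets rose and 1 fell (that of Chaf1b), while 13.2% of all probe sets were called in either direction. All remaining naive arrays then have the high spike-in signal and all day 7 arrays the low one, so that stage and spike-in signal cannot be told apart. Without naive replicate 2 or 3 or any one day 7 array, 1 or 2 members rose, and Pclaf was among them each time. The share of all probe sets called in either direction was then 0.13% to 0.813%. Within the low spike-in set, the mean of the day 7 arrays minus naive replicate 1 had a median of 0.75 over the members and of 0.00 over all tested probe sets. In that set 52 of 64 members (81.2%) were above 0, against 49.6% of all. With a term for the spike-in set in the fit, 1 member was called, Pclaf. The day 7 difference in that fit is again the one from naive replicate 1, so it is not a separate check.

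**Figure D1:**
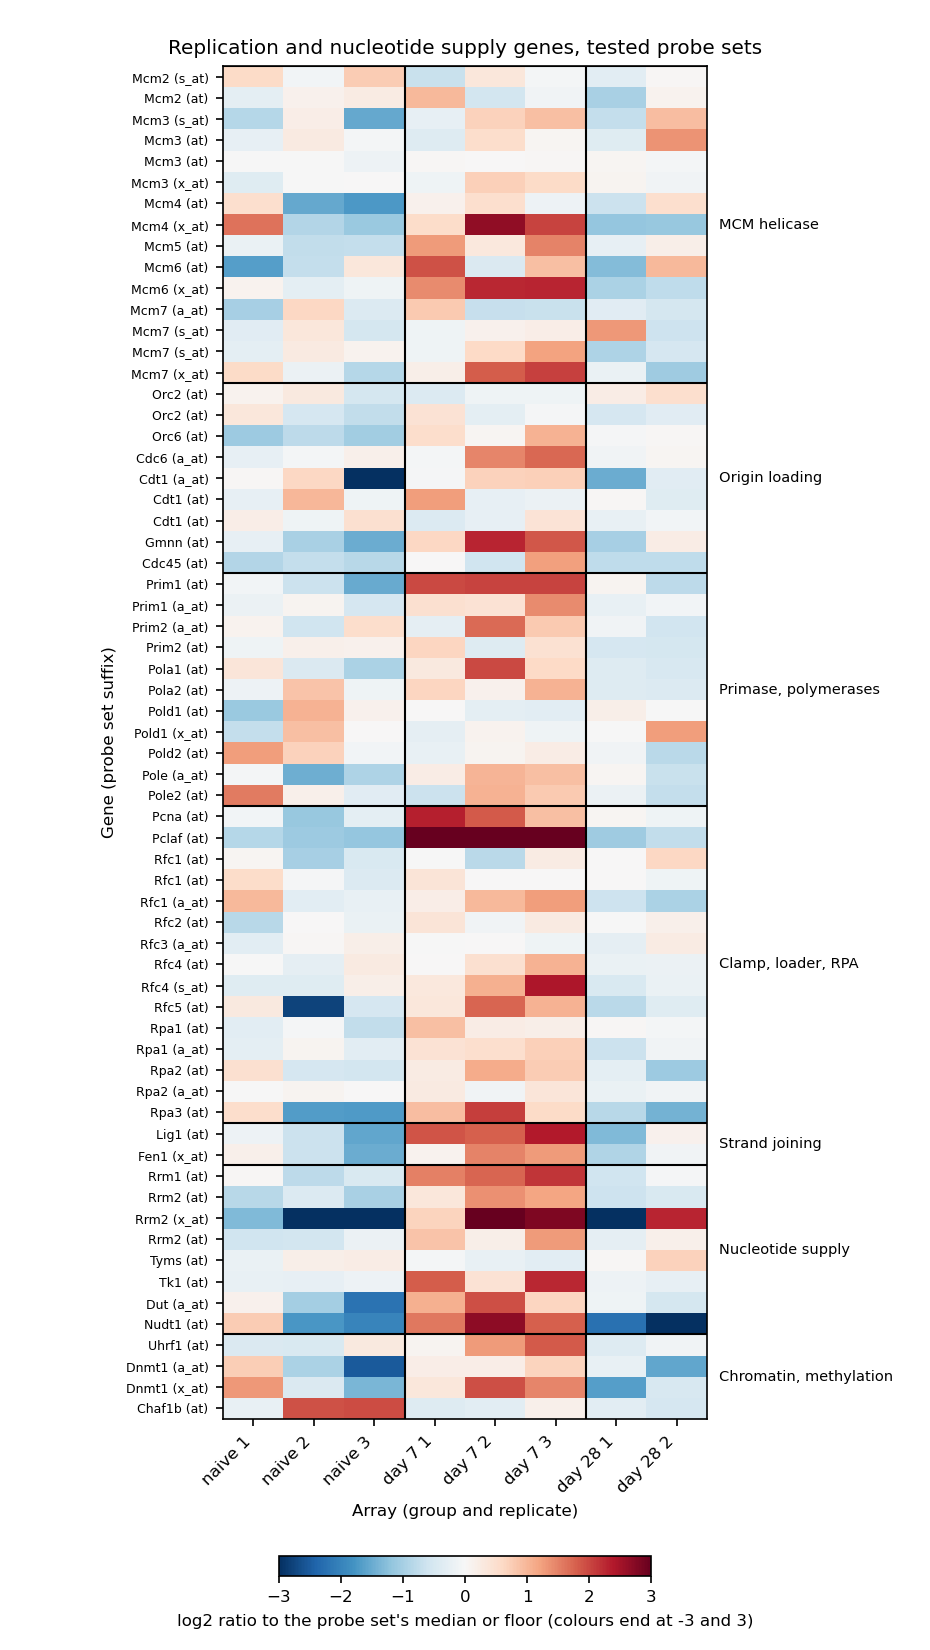
Colours show the log2 ratio of the 64 tested probe sets (vertical axis, by gene and probe set suffix, grouped by role) on each of the 8 arrays (horizontal axis). The median over the 64 is 0.31, 0.50 and 0.78 on the day 7 arrays and lies between -0.41 and -0.14 on the naive and day 28 arrays.

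The highest of the 8 arrays was a day 7 array for 46 of the 64 members (71.9%), against 39.5% of all tested probe sets. The lowest was a naive array for 41 members (64.1%), against 43.4% of all. The 3 day 7 arrays were not alike, since day 7 replicate 1 was the lowest of them for 37 of 64 members, and replicate 3 held the highest value of all arrays for 22. Replicate 3 is also the day 7 array whose Gapdh difference stands apart, and the part of RNA quality in the members' values was not tested.

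Promoters of the 4 genes that rose are shown because these genes are the ones the day 7 comparison turns on, and their motifs can be set beside those of the whole group. Each line gives 120 bases before to 10 bases after the annotated start, 5′ to 3′ on the strand of the gene, from RefSeq on GRCm38.p6. Capitals mark matches to the E2F words TTTCCCGC, TTTCGCGC, TTTGCCGC and TTTGGCGC and to the CCAAT box, on either strand. The positions are chr9:65890203-65890332 on the plus strand for Pclaf, chr1:128359696-128359825 on the minus strand for Mcm6, chr10:128015095-128015224 on the plus strand for Prim1 and chr7:102441575-102441704 on the plus strand for Rrm1.
Pclaf: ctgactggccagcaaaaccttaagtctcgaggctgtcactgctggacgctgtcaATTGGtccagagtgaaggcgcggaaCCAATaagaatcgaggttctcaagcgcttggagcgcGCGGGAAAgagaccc
Mcm6: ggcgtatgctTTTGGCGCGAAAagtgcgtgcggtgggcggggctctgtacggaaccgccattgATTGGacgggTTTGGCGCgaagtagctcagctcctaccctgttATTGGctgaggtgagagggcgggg
Prim1: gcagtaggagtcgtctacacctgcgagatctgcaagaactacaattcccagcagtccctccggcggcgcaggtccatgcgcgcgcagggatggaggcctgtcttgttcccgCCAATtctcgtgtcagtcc
Rrm1: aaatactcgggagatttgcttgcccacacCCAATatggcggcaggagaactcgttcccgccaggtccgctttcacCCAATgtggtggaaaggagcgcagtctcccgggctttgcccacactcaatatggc

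In the Pclaf promoter the E2F word begins 5 bases before the start and runs across it. The Mcm6 promoter holds 3 E2F words, of which the first and the second overlap and lie on opposite strands. No E2F word was found for Prim1 and Rrm1, which says only that these letters are not in this window. RefSeq promoters were matched for 39 of the 44 genes, 50 starts in all, each searched over the whole table window of 250 bases before to 50 after the start. An E2F word was found for 15 of 39 genes (38.5%), against 2.6% of all 27025 genes in the table. A CCAAT box was found for 26 of 39 genes (66.7%), against 41.1%. The member promoters were richer in G and C, with a median of 58.3% against 52.7% over all promoters, and the part of base composition in these shares was not tested. At day 7 the median log2 difference was 1.10 over 25 tested probe sets of 14 genes with a word and 0.94 over 32 of 22 genes without one, and each set held 2 of the 4 probe sets that rose. A match of letters is a description and not a binding site.

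The clamp, its loader and the single-strand binding protein RPA held the largest change of all members. Pclaf (PCNA-associated factor, which binds PCNA at replication forks) had log2 ratios of -0.86, -1.08 and -1.17 in naive mice, 3.62, 4.65 and 4.86 at day 7, and -1.06 and -0.73 at day 28. All 3 day 7 arrays lay far above the other 5, with no overlap. Pclaf rose at day 7 by 5.41 ± 0.37 (SE) on the log2 scale, a 42.6-fold ratio (adjusted p = 0.00102). Its median lies under the floor, so this probe set passed the filter through the day 7 arrays. Within the low spike-in set, day 7 minus naive replicate 1 was 5.23. A second Pclaf probe set was not tested and stayed between -0.48 and 0.08 on all 8 arrays. Both groups of naive and day 28 arrays were close together for Pclaf, with a log2 difference of 0.14 (95% interval -0.83 to 1.11).

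Pcna itself, singled out here after its values were seen, did not pass. Its log2 ratios were -0.07, -1.13 and -0.29 in naive mice, 2.33, 1.84 and 0.91 at day 7, and 0.07 and -0.12 at day 28. The day 7 arrays did not overlap with the others, and the log2 difference from naive was 2.19 ± 0.45 (adjusted p = 0.0775). The median log2 difference at day 7 over the 15 tested probe sets for this role was 0.72. Of them, 14 were above 0 (93.3%, against 56% of all tested probe sets). Rfc1 to Rfc5, which open and load the clamp, had 8 tested probe sets with log2 differences between -0.01 and 2.04, and 0 passed. Rpa1, Rpa2 and Rpa3, the subunits of RPA, had 5 between 0.14 and 2.15, and 0 passed.

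The MCM helicase, which unwinds DNA ahead of the polymerases, is made of Mcm2 to Mcm7. Mcm6 had log2 ratios of 0.12, -0.30 and -0.13 in naive mice, 1.43, 2.27 and 2.29 at day 7, and -0.95 and -0.75 at day 28 on a probe set with the suffix _x_at. The day 7 arrays stood above all others. This probe set rose at day 7 by 2.10 ± 0.33 (4.28-fold, adjusted p = 0.0347). The other Mcm6 probe set had -1.66, -0.72 and 0.34 in naive mice, 1.91, -0.44 and 0.91 at day 7, and -1.30 and 0.96 at day 28. Its groups overlapped, and its log2 difference of 1.47 ± 0.83 did not pass (adjusted p = 0.422). Affymetrix gives the suffix _x_at to probe sets whose probes may also match other transcripts. The 8 member probe sets of this kind had a median log2 difference of 1.56 at day 7, against 0.90 for the 39 members with the plain suffix _at, while over all tested probe sets the medians of these suffixes were 0.07 and 0.10. The median over the 15 helicase probe sets was 0.53. Of them, 14 had a log2 difference above 0, from 0.07 to 2.10 (93.3%, against 56% of all tested probe sets). Mcm2 held the only one below 0, at -0.54, and its other probe set had 0.08.

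Origin loading genes had a median log2 difference of 1.02 at day 7 over 9 tested probe sets, and 0 passed. Orc6, a subunit of the origin recognition complex, had the smallest p of this role. Its log2 ratios were -1.09, -0.80 and -1.04 in naive mice, 0.52, 0.05 and 1.04 at day 7, and -0.05 and 0.04 at day 28. All day 7 arrays were above all naive arrays, and the difference was 1.51 ± 0.32 (adjusted p = 0.0834). Gmnn, which codes for geminin, the inhibitor that keeps Cdt1 from loading helicase again, had a difference of 2.49 ± 0.56 (adjusted p = 0.0991). Cdc6, a helicase loader, had 1.10, and Cdc45, a part of the active helicase, 1.02. The median of Cdc45 lies under the floor, and its probe set passed the filter only through day 7 replicates 1 and 3. Its value is also the median of this role, which is therefore a description only.

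The 3 tested probe sets of Cdt1, the helicase loader that geminin inhibits, did not give the same sign. One had log2 ratios of 0.03, 0.62 and -3.36 in naive mice, -0.03, 0.69 and 0.73 at day 7, and -1.49 and -0.33 at day 28. Its difference at day 7 was 1.37 ± 0.97, and naive replicate 3 lay below all other arrays. A second had -0.25, 1.0 and -0.13 in naive mice, 1.25, -0.26 and -0.18 at day 7, and 0.03 and -0.37 at day 28. The third had 0.19, -0.14 and 0.47 in naive mice, -0.41, -0.24 and 0.42 at day 7, and -0.23 and -0.09 at day 28. Their log2 differences were 0.06 and -0.25, and the naive and day 7 arrays overlapped for all 3 probe sets. On the first of them both day 28 arrays lay below all day 7 arrays.

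Among primase and the polymerases, Prim1 stood apart. Its log2 ratios were -0.08, -0.64 and -1.52 in naive mice, 1.97, 2.02 and 2.03 at day 7, and 0.08 and -0.78 at day 28. The day 7 arrays were close together and lay above all others. Prim1 rose at day 7 by 2.76 ± 0.42 (6.76-fold, adjusted p = 0.0347). The second Prim1 probe set had -0.17, 0.08 and -0.50 in naive mice, 0.49, 0.43 and 1.41 at day 7, and -0.23 and -0.09 at day 28. It was also higher on every day 7 array, with a difference of 0.97 ± 0.35 that did not pass (adjusted p = 0.254). The remaining 9 tested probe sets, of the primase subunit Prim2 and of the polymerase subunits Pola1, Pola2, Pold1, Pold2, Pole and Pole2, ran from -0.60 to 1.54. Polymerase epsilon's catalytic subunit Pole had the highest of these, and 4 of the 9 were below 0, those of Pold1, Pold2 and Pole2, which build polymerases delta and epsilon. The median over the 11 tested probe sets of this role was 0.42.

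Lig1, the ligase that seals newly made lagging-strand fragments, and Fen1, the nuclease that trims their flaps, had 1 tested probe set each. Lig1 had log2 ratios of -0.15, -0.65 and -1.56 in naive mice, 1.88, 1.78 and 2.37 at day 7, and -1.33 and 0.13 at day 28. The day 7 arrays did not overlap with the others. The difference from naive was 2.80 ± 0.50, just short of the threshold (adjusted p = 0.0505). Fen1 had a difference of 1.62 ± 0.54 (adjusted p = 0.221).

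**Figure D2:**
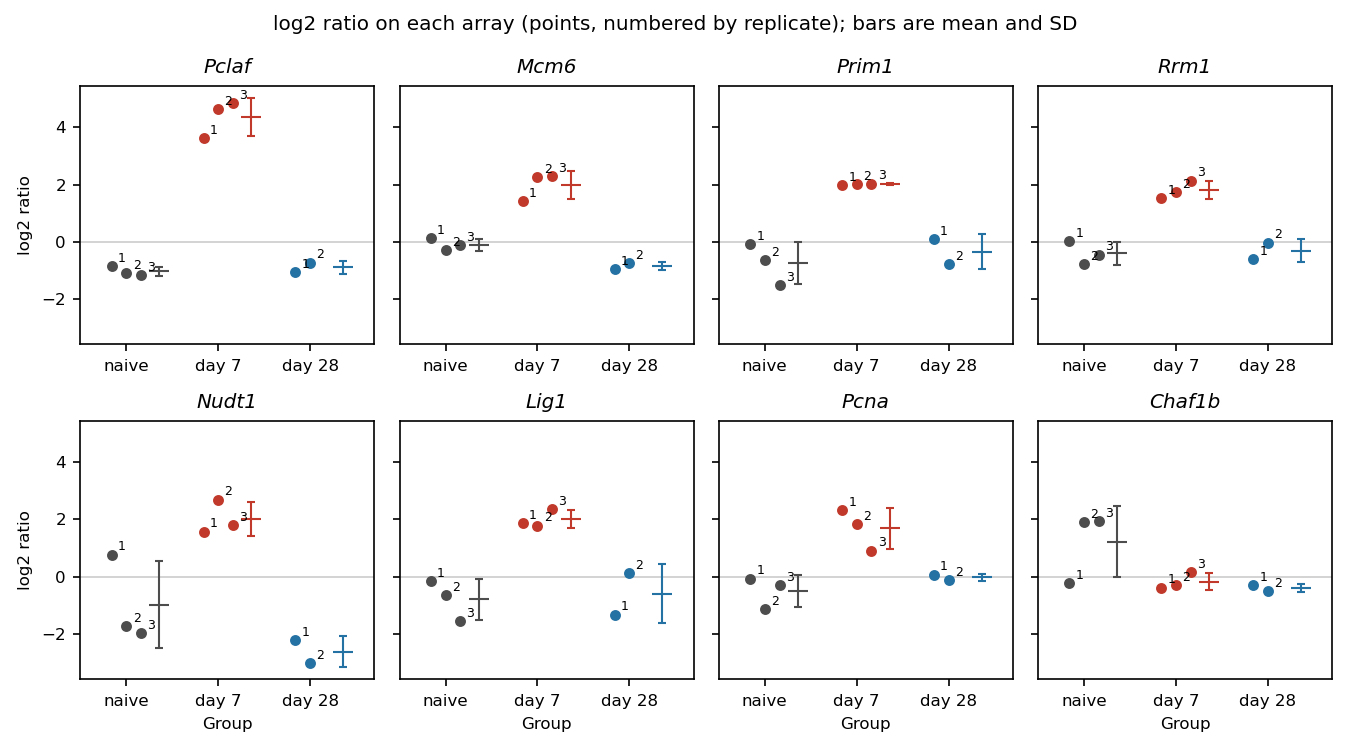
Points show the log2 ratio (vertical axis) on each array, numbered by replicate, for naive, day 7 and day 28 mice (horizontal axis), with 1 probe set per gene and with bars for mean and SD. Drawn are the genes with a called probe set, and Lig1, Pcna and Chaf1b, all chosen with their values known. Where a gene has several probe sets, the called one is drawn, and the other Mcm6 probe set overlaps between groups. The 3 day 7 arrays lie above all naive and day 28 arrays for all genes drawn except Chaf1b, which is a description of this choice.

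Nucleotide supply had 8 tested probe sets of 6 genes, 3 of them of Rrm2, and their median log2 difference at day 7 was 1.96. All day 7 arrays lay above all naive arrays for 7 of the 8, against 13.4% of all tested probe sets. Of these 7, 1 of Rrm2 and that of Tk1 have a median under 1 and passed the filter through day 7 arrays, so the count is a description only, and the roles were not tested against each other. Rrm1 had log2 ratios of 0.03, -0.79 and -0.45 in naive mice, 1.52, 1.74 and 2.14 at day 7, and -0.60 and -0.03 at day 28. It rose at day 7 by 2.20 ± 0.34 (4.60-fold, adjusted p = 0.0347). A second Rrm1 probe set was not tested and lay between -0.72 and -0.41 on all arrays. The 3 tested probe sets of Rrm2, the small reductase subunit made mainly in dividing cells, had differences of 1.70, 5.27 and 1.21 and did not pass. The widest of them had -1.32, -3.77 and -3.49 in naive mice, 0.68, 3.74 and 2.80 at day 7, and -3.52 and 2.29 at day 28. Its spread within groups was large (5.27 ± 1.5, adjusted p = 0.165), and day 28 replicate 2 lay among the day 7 values.

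Nudt1, an enzyme that removes oxidised nucleotides from the pool, had log2 ratios of 0.77, -1.74 and -1.97 in naive mice, 1.58, 2.69 and 1.80 at day 7, and -2.23 and -3.01 at day 28. Naive replicate 1 lay well above the other naive arrays, nearer those of day 7. The difference at day 7 was 3.0 ± 0.73 (adjusted p = 0.119), and against naive replicate 1 alone it was 1.26. Tk1, thymidine kinase, had a difference of 1.71 ± 0.46 and Dut, the enzyme that removes dUTP, 2.25 ± 0.61, and neither passed. Tyms, thymidylate synthase, was the member of this role that did not separate, with a difference of -0.26 ± 0.29 on its tested probe set. Within the low spike-in set, 8 of 8 probe sets of this role were above 0, against 49.6% of all tested probe sets. Their median was 1.55, but that of Tyms was only 0.003. The baseline there is naive replicate 1 alone.

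Genes that restore chromatin and DNA methylation behind the fork gave mixed values, and 0 of 4 tested probe sets passed. Uhrf1, which brings the maintenance methyltransferase Dnmt1 to new DNA, had log2 ratios of -0.42, -0.45 and 0.30 in naive mice, 0.09, 1.28 and 1.84 at day 7, and -0.38 and -0.10 at day 28. Day 7 replicate 1 lay within the naive range, and the difference was 1.26 ± 0.48 (adjusted p = 0.273). The 2 probe sets of Dnmt1 had 1.26 and 1.41, but day 7 minus naive replicate 1, within the low spike-in set, was -0.39 and -0.06. In that set 2 of the 4 probe sets of this role were above 0, and their median was -0.01, against 1.26 over all arrays. Chaf1b, a subunit of the chromatin assembly factor that sets histones on new DNA, ran the other way. It had -0.22, 1.92 and 1.95 in naive mice, -0.38, -0.31 and 0.16 at day 7, and -0.31 and -0.50 at day 28. Only naive replicates 2 and 3 were high, naive replicate 1 lay with the other arrays, and the difference of -1.39 ± 0.58 did not pass (adjusted p = 0.312). The median of Chaf1b lies under the floor, and its probe set passed the filter through naive replicates 2 and 3 and day 7 replicate 3. Chaf1b was singled out after its values were seen.

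**Figure D3:**
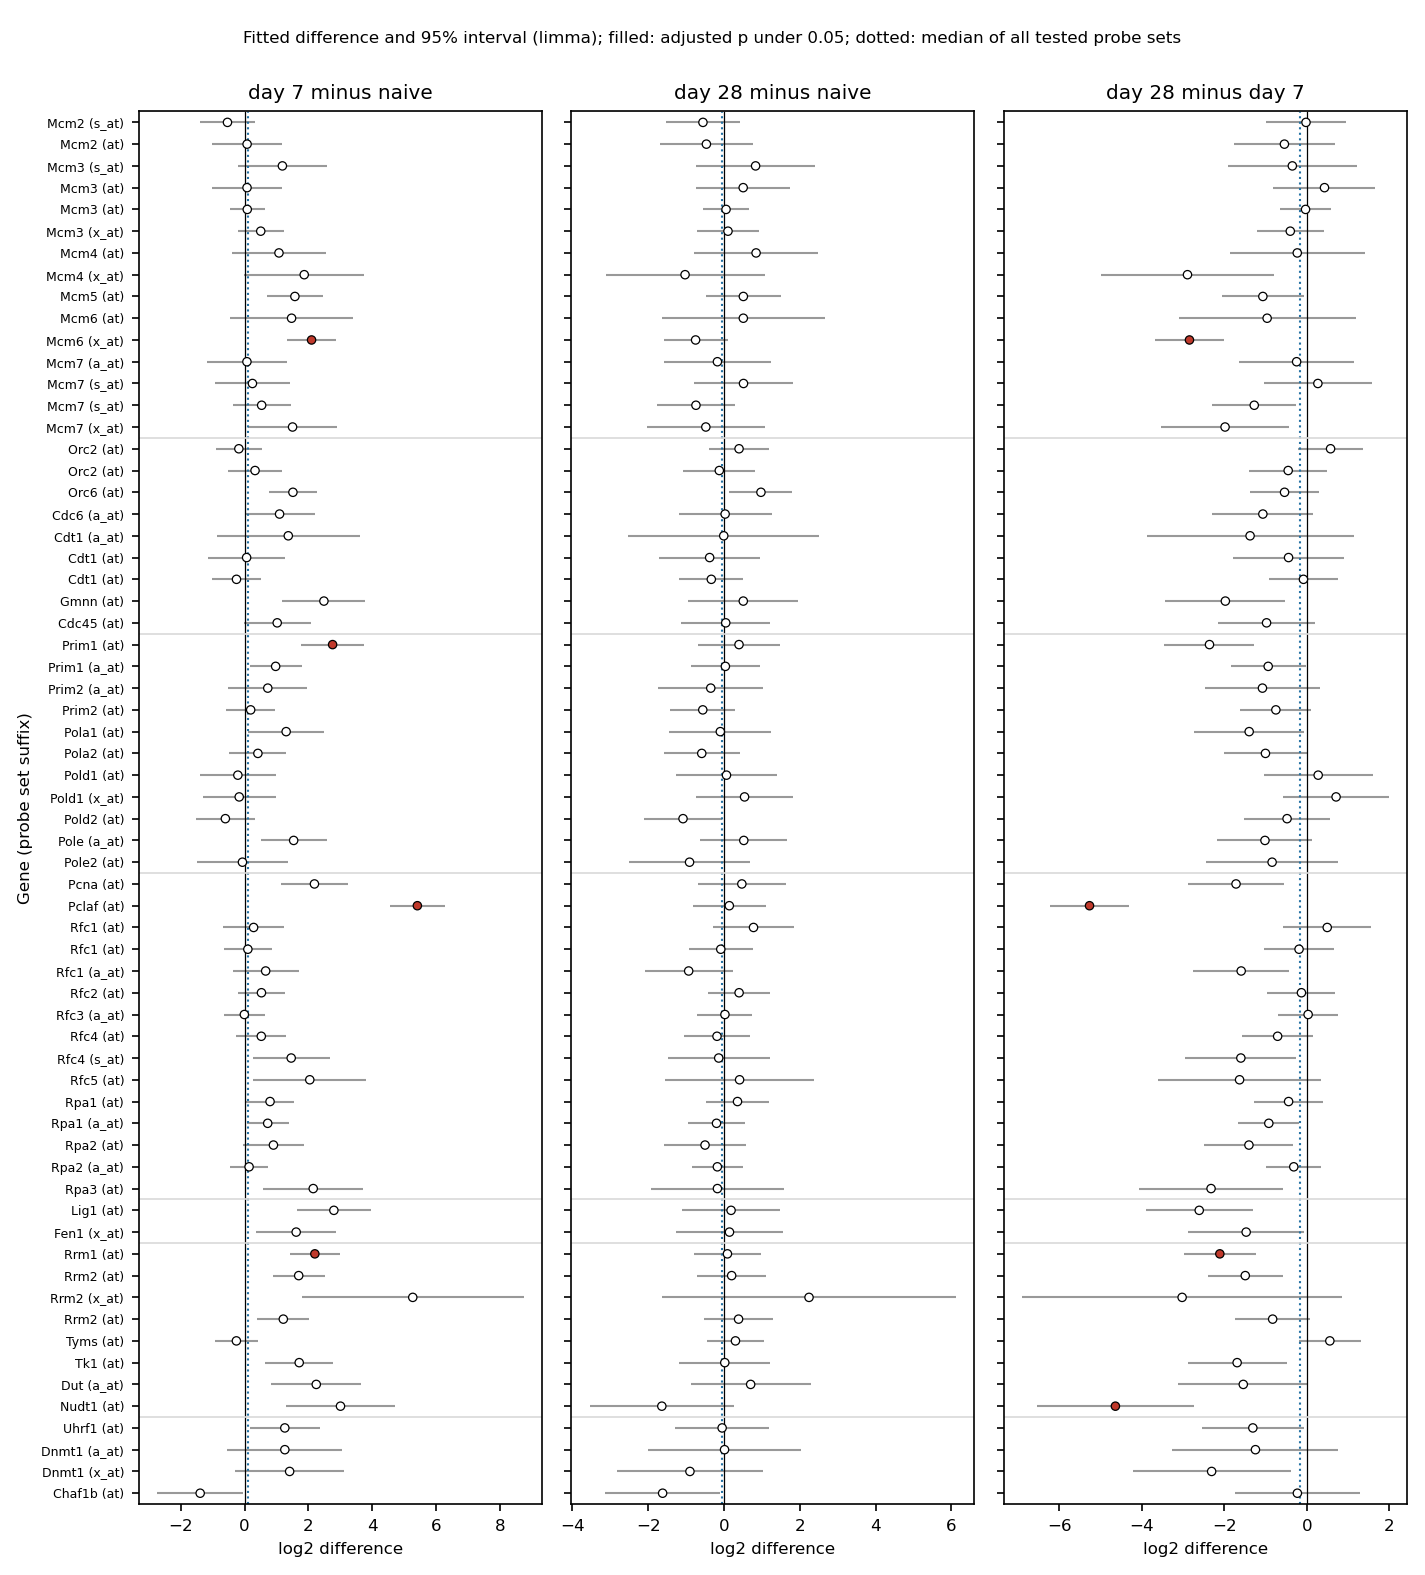
Circles show the fitted log2 difference of each tested probe set (horizontal axes) with its 95% interval in the 3 comparisons, by gene and probe set suffix (vertical axis); filled circles have an adjusted p under 0.05, and the dotted line is the median of all tested probe sets. Filled circles number 4 at day 7 minus naive, 0 at day 28 minus naive and 4 at day 28 minus day 7.

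Between day 28 and naive mice, 0 of the 64 members passed by limma, against 0.322% of all tested probe sets in either direction. At an unadjusted p under 0.05, 1 was higher (1.56%, against 3.13% of all probe sets) and 2 were lower (3.12%, against 3.21%). The one that was higher was Orc6, with a log2 difference of 0.98 ± 0.36 (adjusted p = 0.677). Those that were lower were Chaf1b, with -1.62 (adjusted p = 0.736), and the polymerase delta subunit Pold2, with -1.08 (adjusted p = 0.763). The groups did not overlap for 1 member that was higher (1.56%, against 7.76% of all probe sets). For 10 members that were lower they did not overlap either (15.6%, against 9.88%). The median log2 difference was 0.03, against -0.05 over all tested probe sets. Of the members, 35 were above 0 (54.7%, against 45.5% of all) and 29 below. The interval of single members was wide, as for Rrm1, with a difference of 0.09 and a 95% interval from -0.79 to 0.97. Without naive replicate 1, 1 member fell, Chaf1b, by 2.34 on the log2 scale (adjusted p = 0.0441). The naive arrays left, replicates 2 and 3, are those on which Chaf1b was high and through which it passed the filter. In that fit 0.437% of all probe sets were called in either direction. The high spike-in set holds both day 28 arrays and naive replicates 2 and 3. Within it the members' median difference was 0.06, and 36 of 64 were above 0 (56.2%, against 51.7% of all).

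From day 7 to day 28 most members had a lower mean at the later time (56 of 64, 87.5%, against 58.1% of all tested probe sets). Past the threshold, 4 probe sets fell: those of Pclaf, Mcm6, Rrm1 and Nudt1. This comparison shares its day 7 arrays with the first one, so the values are given side by side only. Over all tested probe sets, 0.882% fell, against 4 of 64 members (6.25%). At an unadjusted p under 0.05, 25 members (39.1%) were lower, against 13.1% of all. The groups did not overlap for 37 members that were lower (57.8%), against 29.7% of all, with 2 arrays against 3. The median was -0.97 over the members and -0.16 over all tested probe sets.

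Pclaf fell by 5.27 on the log2 scale (SE 0.42, adjusted p = 0.00348) and Mcm6, on its _x_at probe set, by 2.85 (SE 0.36, adjusted p = 0.0169). On that probe set both day 28 arrays also lay below all naive arrays. Rrm1 fell by 2.11 (SE 0.38, adjusted p = 0.0474), back to the naive range. Nudt1 fell by 4.64 (SE 0.82, adjusted p = 0.0447), and its day 28 arrays lay below all naive arrays, with a difference from naive of -1.64 that did not pass (adjusted p = 0.894). Prim1 had a difference of -2.36 that did not pass (adjusted p = 0.0618). No spike-in set holds arrays of both day 7 and day 28, and when the fit held a term for that set, which rests on the naive arrays, 0 members were called. By that fit 0 of all tested probe sets were called. The differences of Pclaf and Mcm6 were then -5.00 and -2.52, that of Rrm1 was -1.46, and that of Nudt1 was -2.02 in place of -4.64. Without naive replicate 1, 8 members fell, while 6.21% of all probe sets were called in either direction. Without naive replicate 2 or 3 or any one day 7 array, 1 to 3 members fell. The share of all probe sets called was then 0.192% to 0.989%. Pclaf was among the members that fell each time.

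**Figure D4:**
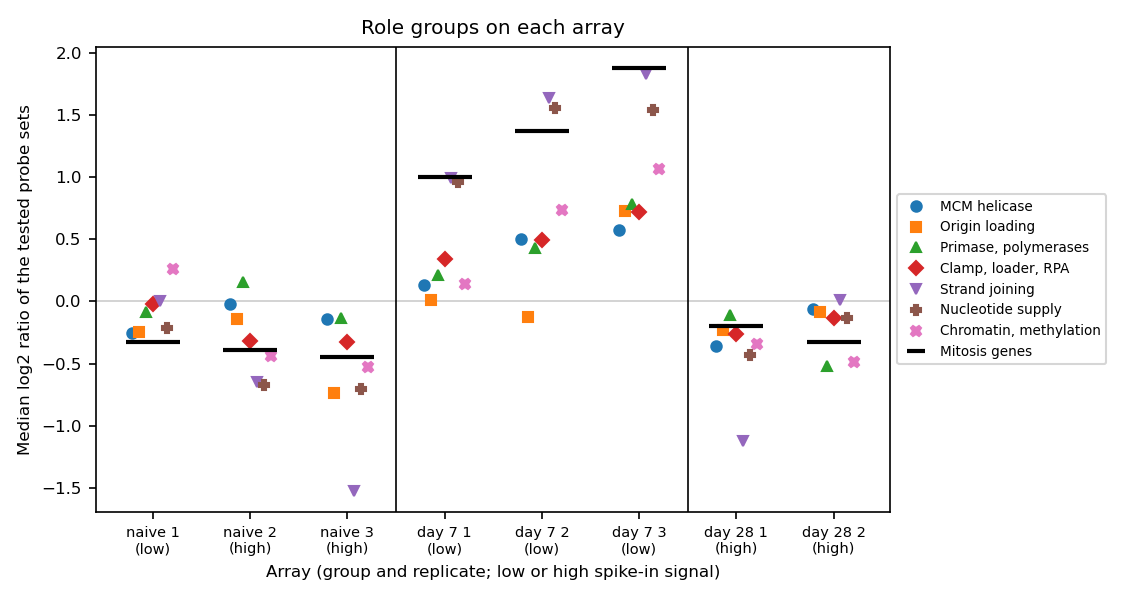
Symbols show the median log2 ratio of the tested probe sets of each role (vertical axis) on each array (horizontal axis, with the spike-in set in brackets), and black bars show the same for genes of mitosis. Nucleotide supply is at 0.96, 1.56 and 1.54 on the day 7 arrays and below 0 on all others.

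Other genes of the same processes, from lists of further replication factors, nucleotide enzymes and regulators of S phase entry, gave 136 tested probe sets of 80 genes. At day 7, 4 rose (2.94%, against 1.06% of all tested probe sets) and 0 fell (against 0.107%). The median log2 difference was 0.38, against 0.11 over all tested probe sets. Ccna2, the cyclin A that drives S phase and entry into mitosis, rose on both of its probe sets, by 4.06 ± 0.48 and 4.13 ± 0.43 (adjusted p = 0.0119 and 0.00833). Tipin, a factor that steadies replication forks, rose by 1.96 ± 0.31 (adjusted p = 0.0347). Cdkn2c, an inhibitor of the kinases Cdk4 and Cdk6, rose by 2.81 ± 0.45 (adjusted p = 0.0396), so that an inhibitor of S phase entry rose beside the cyclin. By list, 1 of 36 probe sets of other replication factors rose (median 0.60), 0 of 60 of other nucleotide enzymes (median 0.34) and 3 of 40 of S phase entry (median 0.08). At day 28 against naive, 0 of 136 passed by limma, against 0.322% of all tested probe sets. At an unadjusted p under 0.05, 3 were higher (2.21%, against 3.13% of all) and 9 lower (6.62%, against 3.21%). At day 28 against day 7, 3 fell (2.21%, against 0.882% of all tested probe sets). Both probe sets of Ccna2 were among them, which fell by 3.27 and fell by 3.59 on the log2 scale. The other was an _x_at probe set of Rnaseh2c, a subunit of the nuclease that removes ribonucleotides from DNA. It fell by 2.99 (adjusted p = 0.0346).

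Genes of mitosis, used here as markers of division, moved with the members. Of 23 tested probe sets, 8 rose at day 7 (34.8%, against 1.06% of all tested probe sets). From day 7 to day 28, 7 fell (30.4%, against 0.882%). The median per array of the mitosis genes was 0.999, 1.37 and 1.88 at day 7 and between -0.45 and -0.19 on the other arrays. Both lists thus had their lowest day 7 median on replicate 1 and their highest on replicate 3. Of 16 tested B cell probe sets, 0 passed at day 7 against naive. At day 28 against naive, 8 rose (50%, against 0.268% of all tested probe sets). T cell markers gave 0 of 16 at day 7 and a median log2 difference of -0.19. Plasma cell markers gave 0 of 8, with medians per array of 0.21 to 0.77 at day 7 and of -1.21 to -0.28 on the naive arrays. Of the germinal centre B cell list, Bcl6, which follicular helper T cells also express, rose at day 7 by 3.35 ± 0.52 (adjusted p = 0.0347), and the other 3 tested probe sets did not pass. Of 4 tested NK cell probe sets, that of Nkg7, a gene of cytotoxic granules, rose by 4.05 ± 0.47 (adjusted p = 0.0107), while Gzma (0.75), Eomes (0.40) and Klrd1 (-0.91) did not pass. None of the 7 stroma and endothelium genes with a probe set passed the filter. The part of cell make-up in the members' values was not tested.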

How the data were processed

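The deposited table holds linear ratios for 22690 probe sets on 8 arrays. Per the labels' protocols, 10 µg of column-purified total RNA was made into biotinylated cRNA. Per the submitters' processing notes, GCRMA was used, with no version given. No source gives the scaling of the deposited ratio. It was inferred, since the median over the 8 arrays is 1 for 47.87% of the probe sets and is above 1 for none. Array dates and batches are not given in the sources used here. Log2 ratios were fitted with limma 3.58.1 in R 4.3.3 (lmFit and eBayes, 1 mean per group over the 8 arrays, two-sided). P-values were adjusted by Benjamini and Hochberg's method across the 13042 probe sets whose ratio was 1 or more on 2 or more arrays. The code was tested on simulated data. Genes were named through the array's annotation table, using probe sets with 1 symbol (20380, against 691 with several and 1555 with none). A probe set that Tyms shares with another symbol was left out.

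The members and lists were chosen with earlier results of these data known. Array values are given for every member with a called probe set, for the member with the smallest p in each role and for those whose probe sets differ in sign by over 1 log2 unit. Genes of the wider lists are named if called. Promoters come from RefSeq. The replicate numbers were checked for pairing and not used as a block. Alternatives were other filters, normalizations and variance models, only the groups compared, gene means, a replicate block, a spike-in term and leaving out each array.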

Additional observations from a re-analysis of the deposited data

How the results depend on the processing

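Pclaf at day 7 against naive passed the threshold in the 16 alternatives that kept its probe set, which is left out where a median of 1 is required, and 0 of the 8 called differences changed sign in any alternative. Its fall from day 7 to day 28 passed in 15 of those 16 and was lost with the spike-in term (adjusted p = 0.123). The others were less stable: at day 7 Mcm6, Prim1 and Rrm1 each passed in 5 of 17, and at day 28 against day 7 Mcm6 passed in 9, Nudt1 in 5 and Rrm1 in 3 of 17. The count of 4 members called at day 7 against naive became 2 with quantile normalization and 1 each with the replicate block, the spike-in term, the trended and robust variance and only the groups compared. For this comparison, leaving out either day 28 array gave the same fit as only the groups compared. These alternatives are therefore not separate, though each is counted. Leaving out each array gave 1 to 19, with 19 without naive replicate 1, 2 without day 7 replicate 1 or 2 and 1 without any of the others. At day 28 against naive, the count of 0 became 1 with the spike-in term and 0 to 1 with each array left out. Here the spike-in term gave the same differences as leaving out naive replicate 1, so these 2 alternatives are not separate either. At day 28 against day 7, the count of 4 became 2 with no filter, 1 each with a median of 1 required, the replicate block and the trended and robust variance, and 0 with the spike-in term. It was 1 to 8 with each array left out (8 without naive replicate 1, 2 without naive replicate 2 or day 7 replicate 1, and 1 without day 7 replicate 2 or 3 or either day 28 array).

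The median difference at day 7 was 0.60 with no filter, 0.75 with the spike-in term, 1.26 over gene means and 0.70 to 1.12 with each array left out. At day 28 against day 7 it was -0.73 with no filter, -0.71 with the spike-in term and -1.03 to -0.75 with each array left out. As gene means, Lig1 (2.80, adjusted p = 0.0363), Pclaf, Prim1 and Rrm1 passed at day 7 and Mcm6 did not (1.78, adjusted p = 0.0949). Of 7 pairs of arrays with the same replicate number, 4 had deviations that correlated above 0.1, and the range was -0.36 to 0.17. Pairing was taken only where every pair lay above 0.1, so the numbers were not taken to pair the arrays. With 2 or 3 arrays a group and a spike-in split that runs along the stages, small differences could not be told from the spread, and signal over background is not held by ratios.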
